A study of Mus musculus with 11 samples.

Results

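The genes described here are 55 genes of the mitotic spindle, the kinetochore and the spindle checkpoint, among 24320 gene rows measured in mouse brain and in 2 kinds of mouse glioma. They were taken by symbol, and all 55 had a row and passed the filter on low values (at least 1 FPKM in at least 3 of 11 libraries). FPKM is the number of sequenced fragments scaled by transcript length and by the library's total. The libraries came from 3 samples of normal brain, 4 NRAS tumors and 4 PDGFB tumors. Every tumor was started by injecting newborn mice in the right lateral ventricle with plasmids for the Sleeping Beauty (SB) transposase, which inserts plasmid genes into host DNA, for firefly luciferase, and for SV40LgT, the large T antigen of the SV40 virus. NRAS tumors also received constitutively active NRASG12V, and PDGFB tumors received PDGFB, a growth factor. Both models thus carry large T, which binds p53 and the Rb family, so no group shows either oncogene alone. Which promoter drives the plasmid genes is not stated in the labels. Tumor tissue was cut out under GFP light at a middle stage of growth, and normal brain is labelled as a wild-type control. Titles match normal brain 1 to NRAS tumor 2 and normal brain 3 to PDGFB tumor 1, without saying what the match means. The main fit does not use this match. The series text names FVB mice, while the sample labels name B6 for all libraries except normal brain 3 (FVB). Separate animals are not stated for the replicates of a group, and p-values then measure only how these samples spread, which may in part be technical.

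Chromosomes are pulled apart by spindle microtubules that attach at kinetochores, protein assemblies built on centromeric chromatin. The checkpoint holds the cell in metaphase until every kinetochore is attached, and the anaphase-promoting complex then marks securin and B-type cyclins for destruction, which frees separase. Most of these genes are transcribed late in the cell cycle, through B-Myb and FoxM1 acting with the MuvB complex, and are kept silent in resting cells by the DREAM complex of MuvB with Rb-related proteins. The adult brain holds few dividing cells, and mitotic transcripts in glioma are commonly read as a measure of proliferation.

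Promoter windows show what the genes share apart from their levels. The windows ran from 250 bases before to 50 after the annotated start, from RefSeq on GRCm38.p6, and 47 of the 55 genes matched 1 or more of them (52 windows). They were searched on both strands for exact matches of TTTGAA and TTCGAA and TTTAAA (forms of the cell cycle genes homology region, which MuvB binds), CCAAT (the NF-Y box) and GCGGGAA (an E2F-type site). Each motif was counted on its own, also where it shares bases with another. A match is a run of letters and not a measured binding site. Of the 47 genes, 32 (68.1%) held TTTGAA or TTCGAA, against 20.2% of 17492 protein-coding genes with windows of the same length. From 50 bases before to 50 after the start the shares were 55.3% and 5.08%. CCAAT was in the windows of 35 genes (74.5%, against 42.3% of all), and 29 (61.7%, against 8.22%) held both CCAAT and 1 of the first 2 motifs. Singly, TTTGAA was found in 57.4% against 18.5%, TTCGAA in 14.9% against 2.13%, TTTAAA in 21.3% against 13.8%, and GCGGGAA in 12.8% against 6.84%. The members were listed by name for their part in mitosis, so these shares are a description and were not tested.

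The stretches below give the 150 bases before the start, 5′ to 3′ on the gene's strand, for the genes on which the results turn: Top2a with the largest rise over normal brain on the log2(FPKM + 1) scale, Mki67, Racgap1 and Ckap2 with the smallest p between the models, and Ckap5 and Anln, which did not pass the test against normal brain. Capitals mark TTTGAA or TTCGAA or CCAAT on either strand (on the other strand TTTGAA reads TTCAAA and CCAAT reads ATTGG).
Top2a, chr11:99024190-99024339 (minus strand): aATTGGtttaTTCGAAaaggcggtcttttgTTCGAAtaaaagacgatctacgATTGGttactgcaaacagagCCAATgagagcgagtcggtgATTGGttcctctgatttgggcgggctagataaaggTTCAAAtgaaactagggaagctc
Mki67, chr7:135716380-135716529 (minus strand): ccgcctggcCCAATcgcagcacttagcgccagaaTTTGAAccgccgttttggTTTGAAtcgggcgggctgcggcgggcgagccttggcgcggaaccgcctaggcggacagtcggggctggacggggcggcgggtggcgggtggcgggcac
Ckap2, chr8:22185820-22185969 (minus strand): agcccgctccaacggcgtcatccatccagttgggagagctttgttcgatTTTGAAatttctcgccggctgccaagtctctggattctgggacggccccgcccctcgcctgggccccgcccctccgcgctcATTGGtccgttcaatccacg
Racgap1, chr15:99651657-99651806 (minus strand): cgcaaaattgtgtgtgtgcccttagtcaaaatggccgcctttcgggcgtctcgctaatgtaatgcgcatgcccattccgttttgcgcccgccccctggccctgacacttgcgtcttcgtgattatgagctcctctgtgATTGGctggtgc
Ckap5, chr2:91526612-91526761 (plus strand): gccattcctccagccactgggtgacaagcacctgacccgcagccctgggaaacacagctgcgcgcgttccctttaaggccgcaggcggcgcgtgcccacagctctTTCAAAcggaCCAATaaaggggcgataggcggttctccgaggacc
Anln, chr9:22389207-22389356 (minus strand): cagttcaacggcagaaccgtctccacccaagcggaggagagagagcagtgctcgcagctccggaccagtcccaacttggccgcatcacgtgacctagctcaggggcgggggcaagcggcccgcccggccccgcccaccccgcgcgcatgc
Positions are those of a match's first base, counted from the start as 0, with negative values before it. Top2a had matches at many places, among them CCAAT at -78 and -58 and TTTGAA at -23. Mki67 had CCAAT at -141 and TTTGAA at -116 and -98. In Racgap1 the only match in the stretch was CCAAT at -12, with TTTGAA at 5 past the start. Ckap5 held the same letters as the genes that rose, TTTGAA at -45 and CCAAT at -35. Anln had none of these letters upstream, and its TTTGAA matches lay at 21 and 28. Of the 47 genes, 15 had neither TTTGAA nor TTCGAA, among them Ccnb1, Birc5 and Nusap1, which rose in both models. Of these, Ccnb1 held the form TTTAAA at -42, with CCAAT at -99 and -67. Birc5 held TTTAAA at -220, and Nusap1 had none of the motifs searched.

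**Figure D1:**
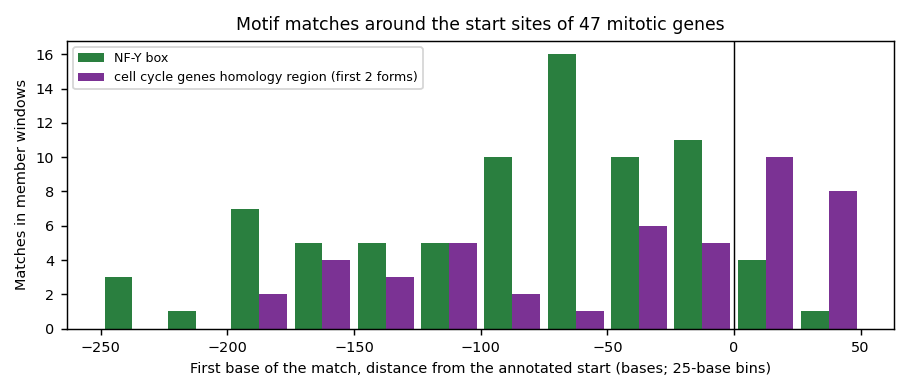
Matches of CCAAT (NF-Y box, green) and of TTTGAA or TTCGAA (homology region, purple) in the windows of 47 mitotic genes (vertical axis, number of matches per 25-base bin) by distance of the first base of the match from the annotated start (horizontal axis, in bases, start at 0; a match near 2 annotated starts of a gene counts for each). CCAAT matches crowd into the 100 bases before the start, where 27 genes have 1 or more, and TTTGAA or TTCGAA matches are most frequent from 50 bases before to 50 after it.

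The genes on the plasmids were high in the tumors named for them. Nras stood at 82.0 to 154 FPKM in the NRAS tumors, 31.7 to 42.9 in the PDGFB tumors and 13.01 to 17.5 in normal brain, and Pdgfb at 745 to 1564, 5.15 to 7.80 and 6.12 to 7.19 FPKM in PDGFB tumors, NRAS tumors and normal brain. The table holds no read counts, so the depth of each library in reads is unknown. Between 12705 and 13923 genes reached 1 FPKM per library, and the upper quartile ran from 13.9 to 14.9 FPKM. Title numbers formed 2 series of unstated meaning, with normal brain and NRAS tumors 1 and 2 in the first (1834 to 1838) and all PDGFB tumors with NRAS tumors 3 and 4 in the second (2038 to 2046). PDGFB tumors and normal brain never shared a series, so that pair has no value within 1 series. NRAS tumor 2 stood apart from the other tumors: 5 neuron markers summed to 963 FPKM there, against 170.0, 394 and 468 in NRAS tumors 1, 3 and 4 and 79.7 to 512 in the PDGFB tumors (1728 to 2219 in normal brain). Counts of calls, the spread among NRAS tumors and the overlap of the models are given with and without it. These are bulk tissues, in which fewer dividing cells and less RNA per dividing cell cannot be told apart.

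Nearly all of the mitotic genes were far higher in both tumor models than in normal brain. In NRAS tumors 53 of 55 were higher and 0 lower, where 32% of all 14491 genes tested were higher and 30.3% lower. In PDGFB tumors 53 were higher and 0 lower, where 29.3% of all genes were higher and 29.2% lower. The median log2 difference of the members, on the scale of log2(FPKM + 1), was 3.02 in NRAS tumors (range -0.17 to 5.07) and 3.86 in PDGFB tumors (0.32 to 6.09), against medians over all genes of 0.01 and 0.04. As ratios of mean FPKM the medians were 25.8 and 45.1. Each test was a limma contrast in a fit of all 11 libraries, and a call needs a p of at most 0.05 after Benjamini-Hochberg adjustment across every gene tested. Every tumor of a model lay above every normal brain for the same number of members, 53 in each model, where 33.2% (NRAS) and 33.8% (PDGFB) of all genes did so. The 2 comparisons share the normal brain libraries. The count in NRAS tumors was also 53 without NRAS tumor 2 (median difference 3.31), and 53 when only NRAS tumors 3 and 4 were used. Of all genes 33.4% and 29.7% were higher in these settings. Within the first title number series (NRAS tumors 1 and 2 against normal brain) the count was 52, where 23.6% of all genes were higher. With the series as a covariate, which the NRAS tumors of both series allow, the same 53 members were higher in PDGFB tumors with a median of 3.82, while the share of all genes that were higher fell from 29.3% to 17%.

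Neuron and oligodendrocyte markers fell while mitotic genes rose. In NRAS tumors 4 of 5 neuron markers and 5 of 5 oligodendrocyte markers were lower than in normal brain (limma with Benjamini-Hochberg adjustment), and in PDGFB tumors 5 of 5 and 5 of 5. Of all genes 30.3% and 29.2% were lower in NRAS and PDGFB tumors. The 5 oligodendrocyte markers summed to 2193 to 6691 FPKM in normal brain, 221 to 1403 in NRAS tumors and 142 to 1985 in PDGFB tumors. Whether a smaller share of resting neural cells plays a part in the rise of the mitotic genes was not tested.

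**Figure D2:**
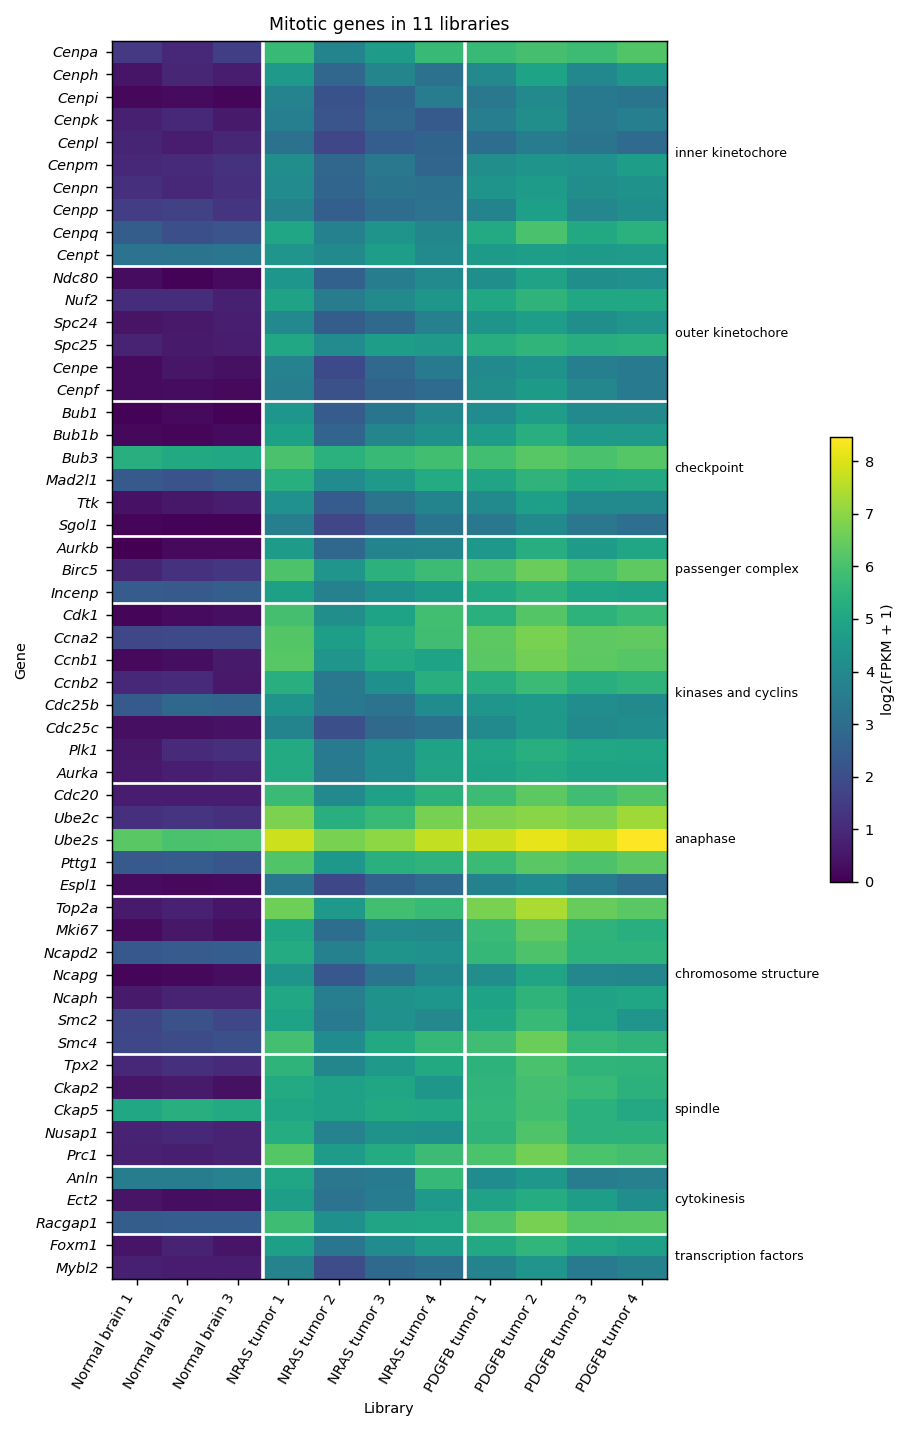
Level of each of the 55 genes (rows, grouped by role) in each of the 11 libraries (columns), as log2(FPKM + 1) by colour. Normal brain is dark for all but a few rows such as Ube2s, Bub3, Ckap5 and Anln, and among the tumors NRAS tumor 2 is the darkest and PDGFB tumor 2 the brightest column for most rows.

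Normal brain set the scale of these ratios. Mean FPKM in normal brain was below 1 for 33 members, from 1 to 10 for 18 and at 10 or more for Anln, Bub3, Ckap5 and Ube2s. For 30 members all 3 normal brains were below 1 FPKM, so their ratios rest on low values and the log2(FPKM + 1) difference understates them. These 30 passed the filter on low values through tumor libraries alone, so the filter itself favoured a rise for them. With no filter the counts of higher members were also 53 in NRAS and 53 in PDGFB tumors, where 24.8% and 21.4% of all genes were higher. The members' mean log2(FPKM + 1) was 1.26, 1.31 and 1.31 in normal brains 1 to 3, 4.95, 3.45, 4.12 and 4.46 in NRAS tumors 1 to 4, and 4.97, 5.47, 4.92 and 4.94 in PDGFB tumors 1 to 4. All 8 tumors lay above all normal brains, NRAS tumor 1 lay between PDGFB tumors, and the other NRAS tumors lay below them.

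Top2a, topoisomerase II alpha, which untangles sister DNA and shapes the mitotic chromosome, had the largest rise on the log2(FPKM + 1) scale in both models (gene at chr11:98992943-99024189, GRCm38.p6). As a ratio of mean FPKM, Cdk1 rose more. Top2a was measured at 0.513, 0.708 and 0.437 FPKM in normal brains 1 to 3, 95.5, 22.6, 59.01 and 52.2 in NRAS tumors 1 to 4 and 106, 164, 88.7 and 77.04 in PDGFB tumors 1 to 4. The differences from normal brain were 5.07 ± 0.40 (SE) in NRAS tumors (limma adjusted p = 6.39e-06) and 6.09 ± 0.40 in PDGFB tumors (limma adjusted p = 2.24e-06). Between the models the groups overlapped, since NRAS tumor 1 exceeded PDGFB tumors 3 and 4, and the difference of -1.02 ± 0.37 did not pass (limma adjusted p = 0.0609).

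Mki67, the gene of the Ki-67 antigen that coats mitotic chromosomes and is stained to grade gliomas, lies at chr7:135689784-135716361. Its level was 0.181, 0.446 and 0.274 FPKM in normal brain, 30.4, 7.27, 15.99 and 15.6 in NRAS tumors 1 to 4 and 53.8, 83.3, 44.3 and 39.1 in PDGFB tumors 1 to 4. No tumor of one model overlapped the other here. NRAS tumors averaged 17.3 ± 9.62 FPKM (SD, n = 4) and PDGFB tumors 55.1 ± 19.7 (SD, n = 4), a ratio of 3.18 and the largest between the models among the 55 genes. On the log2 scale the difference was -1.71 ± 0.35 (limma adjusted p = 0.00567).

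Condensin, the ring complex that compacts mitotic chromosomes, has 5 members here, Smc2, Smc4, Ncapd2, Ncapg and Ncaph, and each of them rose against normal brain in both models. Of the condensin genes outside the 55, Ncapg2 rose in both models (2.03 in NRAS and 2.82 in PDGFB tumors). Ncapd3 and Ncaph2 did not pass in NRAS tumors (limma adjusted p = 0.0801 and 0.155) and were higher in PDGFB tumors (limma adjusted p = 0.00387 and 0.00202). Ncapd2, a subunit specific to condensin I, stood at 4.05, 4.36 and 4.75 FPKM in normal brain, 35.4, 12.2, 19.8 and 18.5 in NRAS tumors and 48.5, 67.7, 43.3 and 43.3 in PDGFB tumors. All PDGFB tumors were above all NRAS tumors for Ncapd2, by 2.36 times in the means (limma difference -1.27 ± 0.26, adjusted p = 0.00574). The other condensin members differed between the models by -0.88 (Smc2) to -0.69 (Smc4) without passing.

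At the inner kinetochore and centromere all 10 members were higher than normal brain in both models, with median differences of 2.12 in NRAS and 3.24 in PDGFB tumors. Cenpa, the histone variant that marks the centromere, was the most abundant of them, at 1.62, 0.942 and 1.93 FPKM in normal brain, 51.7, 12.9, 24.04 and 51.3 in NRAS tumors and 50.7, 61.001, 53.9 and 70.4 in PDGFB tumors. NRAS tumors 1 and 4 reached the level of PDGFB tumor 1, while NRAS tumors 2 and 3 stayed below all PDGFB tumors. The difference between the models was -0.93 ± 0.37 (limma adjusted p = 0.0886), which did not pass.

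The constitutive centromere network, the layer that links Cenpa chromatin to the outer kinetochore, takes in all of these inner genes but Cenpa. It held the 5 inner genes that were lower in NRAS than in PDGFB tumors, Cenpk, Cenpm, Cenpn, Cenpp and Cenpq. Its other members here, Cenph, Cenpi, Cenpl and Cenpt, did not pass between the models (limma adjusted p = 0.144, 0.321, 0.0916 and 0.12). Cenpq was measured at 30.7, 11.997, 19.6 and 13.7 FPKM in NRAS tumors and 34.9, 63.6, 34.2 and 40.7 in PDGFB tumors, against 4.65, 3.15 and 3.65 in normal brain. Cenpn, which binds Cenpa nucleosomes, stood at 15.7, 5.78, 8.603 and 7.83 FPKM in NRAS tumors and 19.9, 24.7, 16.9 and 19.2 in PDGFB tumors, against 1.22, 0.967 and 1.198 in normal brain. Cenpm stood at 17.0005, 5.89, 9.56 and 5.71 FPKM in NRAS tumors and 17.3, 19.9, 18.5 and 25.2 in PDGFB tumors, against 0.907, 1.02 and 1.36 in normal brain. For each of these 3 genes the models did not overlap, although NRAS tumor 1 came within a few FPKM of the lowest PDGFB tumor. The differences were -1.19 ± 0.28, -1.08 ± 0.24 and -1.12 ± 0.28 (limma adjusted p = 0.0106, 0.00807 and 0.0141). Cenpt, which anchors the Ndc80 complex from the inside, changed least of the 10, by 1.04 ± 0.16 and 1.38 ± 0.16 against normal brain.

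The outer kinetochore, which grips the microtubule, was represented by the 4 subunits of the Ndc80 complex (Ndc80, Nuf2, Spc24, Spc25), the motor protein Cenpe and the scaffold Cenpf. All 6 were higher than normal brain in both models, with medians of 2.99 and 4.02. Spc25 was the most abundant, at 0.758, 0.539 and 0.566 FPKM in normal brain, 31.8, 16.04, 25.3 and 22.4 in NRAS tumors and 37.04, 45.5, 37.8 and 40.2 in PDGFB tumors. The models did not overlap for Spc25, and the difference between them was -0.76 ± 0.18 (limma adjusted p = 0.0104). Cenpf stood at 0.197, 0.224 and 0.161 FPKM in normal brain, 11.2, 3.28, 5.498 and 6.79 in NRAS tumors and 17.1, 23.2, 14.1 and 9.83 in PDGFB tumors. Its difference between the models was larger (-1.19 ± 0.31, limma adjusted p = 0.0164), but PDGFB tumor 4 lay below NRAS tumor 1. Spc24 and Nuf2 were also lower in NRAS tumors, at -1.14 ± 0.29 and -0.92 ± 0.25 (limma adjusted p = 0.0161 and 0.0208). Ndc80 and Cenpe did not pass between the models, with differences of -0.72 ± 0.33 and -0.85 ± 0.35.

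Checkpoint genes rose against normal brain, all 6 in both models, and 0 of 6 passed between the models. Bub1b (BubR1), which with Mad2 blocks Cdc20, was measured at 0.123, 0.1002 and 0.189 FPKM in normal brain, 27.04, 5.8004, 13.9 and 17.8 in NRAS tumors and 24.7, 39.5, 22.8 and 22.8 in PDGFB tumors. NRAS tumor 1 was above 3 of the 4 PDGFB tumors for Bub1b, and the difference between the models was -0.87 ± 0.36 (limma adjusted p = 0.0976). Bub3, the WD-repeat partner of Bub1 and BubR1, was already at 39.6, 33.9 and 31.9 FPKM in normal brain, with levels of 63.7, 41.5, 50.8 and 58.8 in NRAS tumors and 58.7, 75.2, 64.5 and 74.1 in PDGFB tumors, all above every normal brain. Its differences from normal brain were the smallest among the members that passed, 0.59 ± 0.16 in NRAS tumors and 0.93 ± 0.16 in PDGFB tumors (limma adjusted p = 0.00788 and 0.000589). Within the first title number series Bub3 no longer passed in NRAS tumors (limma adjusted p = 0.0929). The kinases Bub1 and Ttk (Mps1), the checkpoint effector Mad2l1 and Sgol1 (shugoshin, which guards centromeric cohesin) differed between the models by -0.75 to -0.38 without passing.

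The chromosomal passenger complex corrects faulty attachments through its kinase Aurkb, which is held by Incenp and Birc5 (survivin). All 3 were higher than normal brain in both models. Birc5, the most abundant, stood at 0.854, 1.303 and 1.54 FPKM in normal brain, 66.97, 20.4, 42.2 and 54.3 in NRAS tumors and 64.1, 90.1, 62.6 and 81.5 in PDGFB tumors. NRAS tumor 1 lay within the range of the PDGFB tumors, and the difference between the models was -0.79 ± 0.30 (limma adjusted p = 0.0761), not past the threshold. Aurkb was listed at 0 in normal brain 1 and at 0.157 and 0.165 FPKM in the other two, at 23.7, 6.05, 12.9 and 13.7 in NRAS tumors and at 21.9, 37.03, 23.9 and 31.3 in PDGFB tumors. Aurkb and Incenp were lower in NRAS than in PDGFB tumors, by -1.07 ± 0.32 and -0.79 ± 0.22 (limma adjusted p = 0.0291 and 0.0248). The groups overlapped for Aurkb through NRAS tumor 1 and did not overlap for Incenp.

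Among the kinases, cyclins and phosphatases of mitotic entry, all 8 members were higher than normal brain in both models. Ccnb1, cyclin B1, the activator of the mitotic kinase Cdk1, lies at chr13:100778650-100786570. It stood at 0.168, 0.229 and 0.514 FPKM in normal brain, 76.02, 20.05, 34.99 and 28.7 in NRAS tumors and 76.96, 99.2, 78.9 and 74.3 in PDGFB tumors. NRAS tumor 1 lay inside the range of the PDGFB tumors, whereas NRAS tumors 2, 3 and 4 were far below it. The difference between the models was -1.19 ± 0.32 (limma adjusted p = 0.0183). Ccna2, cyclin A2, was the most abundant of these 8, at 2.51, 2.66 and 2.67 FPKM in normal brain, 72.3, 24.8, 39.4 and 57.2 in NRAS tumors and 79.7, 107, 80.6 and 82.5 in PDGFB tumors, with no overlap between the models (-0.93 ± 0.27, limma adjusted p = 0.0245).

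Cdc25c, a phosphatase that switches Cdk1 on, was measured at 0.284, 0.277 and 0.332 FPKM in normal brain, 13.1, 3.195, 6.52 and 7.92 in NRAS tumors and 15.04, 22.3, 15.2 and 16.5 in PDGFB tumors. All NRAS tumors were below all PDGFB tumors for Cdc25c (-1.18 ± 0.30, limma adjusted p = 0.015). Cdk1 itself overlapped between the models, at 0.107, 0.183 and 0.273 FPKM in normal brain, 60.7, 16.9, 28.7 and 58.1 in NRAS tumors and 40.1, 72.5, 43.1 and 51.5 in PDGFB tumors. NRAS tumors 1 and 4 exceeded 3 of the 4 PDGFB tumors, and the difference between the models was -0.46 ± 0.36 (limma adjusted p = 0.373), not past the threshold. The ratio of mean Cdk1 FPKM to normal brain was the largest of all members, 219 in NRAS and 276 in PDGFB tumors, over a normal level of 0.188 ± 0.0833 FPKM (SD, n = 3). Ccnb2 (cyclin B2), Plk1 and Aurka (kinases of centrosome and spindle) and Cdc25b did not pass between the models.

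Exit from mitosis was represented by Cdc20, the activator of the anaphase-promoting complex, its ubiquitin-conjugating enzymes Ube2c and Ube2s, securin (Pttg1) and separase (Espl1). All 5 rose against normal brain in both models. Cdc20 stood at 0.58003, 0.609 and 0.593 FPKM in normal brain, 53.7, 15.2, 27.7 and 42.2 in NRAS tumors and 54.5, 78.7, 57.2 and 70.6 in PDGFB tumors. The models did not overlap, but NRAS tumor 1 was within 1 FPKM of PDGFB tumor 1 (-1.02 ± 0.31, limma adjusted p = 0.0325). Ube2s was the most abundant member of all in every group, at 76.8, 63.4 and 65.3 FPKM in normal brain, 224, 106, 128 and 204 in NRAS tumors and 217, 279.6, 241 and 349 in PDGFB tumors. Its difference between the models was -0.75 ± 0.24 (limma adjusted p = 0.0385), with NRAS tumor 1 above PDGFB tumor 1. The exons of Ube2s overlap those of Rpl28, a ribosomal protein gene on the opposite strand, which averaged 364 FPKM in normal brain, 1062 in NRAS tumors and 1258 in PDGFB tumors. No label says whether the library kit kept strand, so reads of the pair cannot be told apart, and the part of Rpl28 in these Ube2s values was not tested.

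Spindle microtubule proteins held 1 of the 2 exceptions. Ckap5 (chTOG), a microtubule polymerase that also serves in non-dividing cells, lies at chr2:91526762-91620664. It stood at 32.7, 38.04 and 35.2 FPKM in normal brain, 30.5, 27.6, 34.3 and 32.6 in NRAS tumors and 47.4, 59.02, 41.1 and 33.1 in PDGFB tumors. NRAS tumors overlapped normal brain, and so did PDGFB tumor 4. The differences from normal brain were -0.17 ± 0.17 in NRAS tumors and 0.32 ± 0.17 in PDGFB tumors (limma adjusted p = 0.397 and 0.135). Ckap5 was lower in NRAS than in PDGFB tumors (-0.49 ± 0.16, limma adjusted p = 0.0416), although PDGFB tumor 4 fell within the NRAS range, and this call held in 5 of 22 alternatives (adjusted p up to 0.272). Without PDGFB tumor 4 the rise over normal brain passed (limma adjusted p = 0.0215).

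The other 4 spindle genes rose in both models. Ckap2, a microtubule nucleator, was measured at 0.414, 0.519 and 0.303 FPKM in normal brain, 34.8, 27.5, 29.98 and 21.4 in NRAS tumors and 44.8, 60.5, 51.99 and 42.2 in PDGFB tumors. It was the member with the smallest p in both comparisons with normal brain (4.36 ± 0.18 and 5.16 ± 0.18, limma adjusted p = 1.43e-07 and 3.84e-08). Ckap2 was 1 of the few genes for which NRAS tumor 2 was not the lowest tumor, and the models did not overlap (-0.80 ± 0.16, limma adjusted p = 0.00542). Nusap1, which bundles microtubules near chromosomes, stood at 0.802, 0.938 and 0.739 FPKM in normal brain, 36.96, 12.4, 19.3 and 17.7 in NRAS tumors and 44.1, 68.01, 42.01 and 42.2 in PDGFB tumors, again with no overlap (-1.23 ± 0.28, limma adjusted p = 0.00875). Prc1, which crosslinks the central spindle, stood at 0.732, 0.631 and 0.781 FPKM in normal brain, 73.9, 24.3, 36.03 and 54.1 in NRAS tumors and 65.99, 99.01, 66.1 and 59.6 in PDGFB tumors. NRAS tumor 1 exceeded 3 of the 4 PDGFB tumors for Prc1, and the models' difference of -0.70 ± 0.29 did not pass (limma adjusted p = 0.0962). Tpx2, the activator of Aurka on the spindle, was lower in NRAS tumors by a margin at the threshold (-0.86 ± 0.29, limma adjusted p = 0.0495), a call that held in 3 of 22 alternatives.

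Of the 3 cytokinesis genes, Racgap1 and Ect2 act together at the division site, where Racgap1 activates the RhoA exchange factor Ect2. Racgap1 (chr15:99620496-99651656) was measured at 4.61, 4.802 and 4.76 FPKM in normal brain, 55.8, 17.7, 29.5 and 30.1 in NRAS tumors and 69.5, 103, 74.8 and 76.9 in PDGFB tumors. All PDGFB tumors lay above all NRAS tumors, and the difference of -1.36 ± 0.27 had the smallest p between the models among the 55 genes (limma adjusted p = 0.00485). Ect2 rose against normal brain by 3.63 ± 0.35 and 4.38 ± 0.35 and did not pass between the models (-0.75 ± 0.33).

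Anln, anillin, an actin-binding scaffold of the contractile ring that is also found in myelin, was the second exception (chr9:22332012-22389188). It stood at 10.8, 10.8 and 12.3 FPKM in normal brain, 31.3, 9.19, 9.92 and 49.6 in NRAS tumors and 16.4, 21.6, 11.1 and 11.7 in PDGFB tumors. NRAS tumors 1 and 4 were high, NRAS tumors 2 and 3 were below all normal brains, and PDGFB tumors 3 and 4 overlapped normal brain. The differences were 0.75 ± 0.50 and 0.35 ± 0.50 against normal brain and 0.40 ± 0.46 between the models (limma adjusted p = 0.21, 0.569 and 0.567). It was the only member whose mean was higher in NRAS than in PDGFB tumors, and without NRAS tumor 4 that difference was -0.04. The 5 oligodendrocyte markers summed to 393, 1403, 221 and 854 FPKM in NRAS tumors 1 to 4; their part in the Anln values was not tested.

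Both transcription factors of the mitotic programme rose. Foxm1 stood at 0.394, 0.785 and 0.403 FPKM in normal brain, 26.02, 9.08, 16.3 and 24.6 in NRAS tumors and 34.05, 46.8, 31.2 and 26.2 in PDGFB tumors. The models did not overlap, with NRAS tumor 1 just under PDGFB tumor 4, and the difference was -0.90 ± 0.29 (limma adjusted p = 0.0429), a call that held in 8 of 22 alternatives. Mybl2 (B-Myb) rose by 2.26 ± 0.35 and 3.15 ± 0.35 against normal brain and differed between the models by -0.89 ± 0.32 (limma adjusted p = 0.064), which did not pass.

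**Figure D3:**
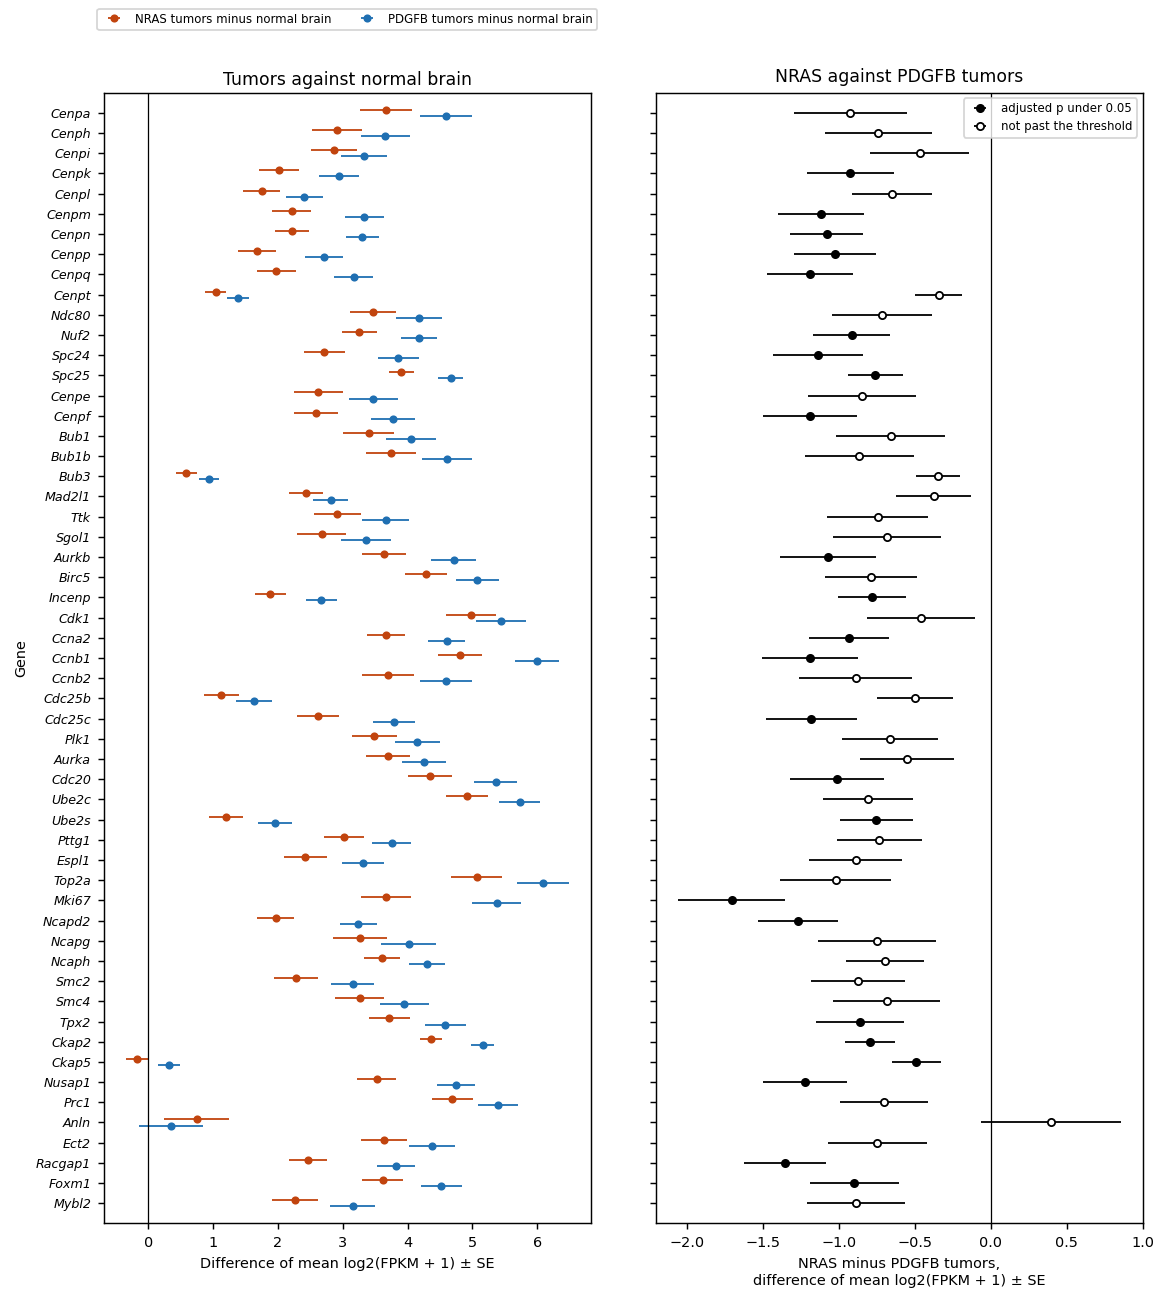
Left, difference of mean log2(FPKM + 1) from normal brain for each of the 55 genes in NRAS and in PDGFB tumors; right, difference of NRAS from PDGFB tumors; bars are standard errors from limma, and filled points on the right passed the adjusted threshold. On the left all genes but Ckap5 and Anln lie to the right of 0 and passed the adjusted threshold, with Bub3 the nearest of them to 0 (0.59 in NRAS tumors). On the right 54 of 55 points lie left of 0, of which 24 are filled.

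Between the models, mitotic genes were lower in NRAS than in PDGFB tumors or did not pass, and none was higher. Of the 55, 24 were lower, where 12.2% of all genes tested were lower in NRAS tumors, and 0 were higher, where 14.3% of all genes were. The differences ran from -1.71 to 0.40 with a median of -0.81, against a median over all genes of -0.04, and 54 of 55 were below 0. The median ratio of mean FPKM, PDGFB over NRAS, was 1.69. For 17 members no NRAS tumor reached the lowest PDGFB tumor, against 11.6% of all genes, and for 0 members was it the reverse, against 12.9%. Without NRAS tumor 2 the number was also 17, against 16.7% of all genes. Counted by role, 5 of 10 inner and 4 of 6 outer kinetochore genes were lower, 0 of 6 checkpoint, 2 of 3 passenger, 3 of 8 entry, 2 of 5 exit, 2 of 7 chromosome structure, 4 of 5 spindle, 1 of 3 cytokinesis and 1 of 2 transcription factor genes.

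The count of 24 moved with single libraries. It was 45 without NRAS tumor 1, 15 without NRAS tumor 3, 14 without PDGFB tumor 2 and 19 without NRAS tumor 2. Of all genes tested, 13.6%, 8.28%, 9.07% and 13.5% were lower in these settings, in the same order, against 12.2% in the main comparison. Without NRAS tumor 2 the median difference of the members was -0.54 in place of -0.81. With only NRAS tumors 3 and 4 against the 4 PDGFB tumors, all of the second title number series, it was 21. Of these 20 were among the 24, and 8.87% of all genes were lower in this setting. With that series as a covariate in the fit of all libraries the count was 13, where 11.3% of all genes were lower. A set of 11 genes passed in the main comparison and in each of the 22 alternatives run: Cenpm, Cenpn, Cenpp, Cenpq, Spc25, Cenpf, Mki67, Ncapd2, Ckap2, Nusap1 and Racgap1. The share of all genes that did so was not counted, so the 11 cannot be set against genes at large.

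Markers of other cells differed between the models beside the mitotic genes. Of all genes tested 14.3% were higher and 12.2% lower in NRAS than in PDGFB tumors. All 6 leukocyte and macrophage markers were higher in NRAS than in PDGFB tumors (limma with Benjamini-Hochberg adjustment), and they summed to 352, 259, 665 and 779 FPKM in NRAS tumors 1 to 4, 64.6 to 194 in PDGFB tumors and 79.0 to 92.8 in normal brain. All 5 T and NK cell markers were higher as well, summing to 7.17 to 153 FPKM in NRAS tumors and 0.277 to 1.14 in PDGFB tumors, where Cd3d and Nkg7 were listed at 0 in 1 or more libraries. All 5 oligodendrocyte progenitor markers were lower in NRAS tumors, summing to 135 to 648 FPKM there, against 1219 to 1524 in PDGFB tumors and 90.4 to 151 in normal brain. NRAS tumor 1, whose mitotic genes were nearest to those of the PDGFB tumors, had the lowest neuron sum (170.0 FPKM) and the highest progenitor sum (648 FPKM) of the NRAS tumors. The part of these cells in the mitotic differences was not tested.

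**Figure D4:**
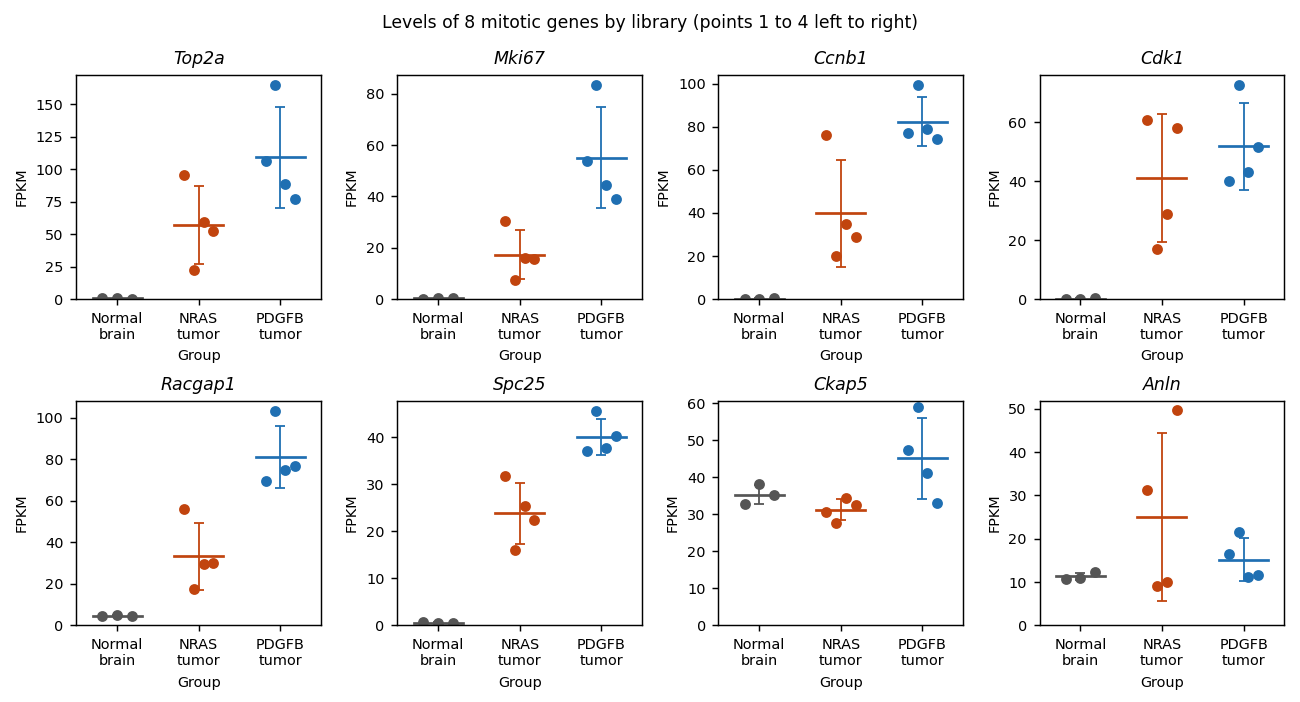
FPKM of 8 mitotic genes in each library, with points of a group drawn from replicate 1 at the left to the last at the right, the horizontal line at the group mean and the bar at 1 SD (n = 3, 4 and 4). Mki67, Racgap1 and Spc25 separate the models, Top2a, Ccnb1 and Cdk1 overlap between them through NRAS tumor 1 or 4, and Ckap5 and Anln overlap normal brain.

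In the mitotic genes the NRAS tumors varied more among themselves than the PDGFB tumors. The coefficient of variation across 4 tumors was higher in NRAS than in PDGFB tumors for 54 of 55 members, with medians of 48.5% and 23.4%. The ratio of the highest to the lowest tumor had a median of 3.27 among NRAS and 1.61 among PDGFB tumors. NRAS tumor 2 carried much of this: without it the median coefficient of variation of the other 3 NRAS tumors was 36.1%, above that of the PDGFB tumors for 45 of 55 members, and the median ratio was 1.96. Neither count was made over all genes, so whether this spread is particular to the members is unknown. The same tumors were at the ends from gene to gene, so the members are not independent of each other. NRAS tumor 2 was the lowest of the 8 tumors for 52 members and below all PDGFB tumors for 55. NRAS tumor 1 was the highest of its model for 51 members, and it lay below the range of the PDGFB tumors for 19 members, within it for 34 and above it for 2. NRAS tumor 3 lay below that range for 53 members and NRAS tumor 4 for 41. PDGFB tumor 2 was the highest of the 8 tumors for 47 members. The lowest PDGFB tumor changed with the gene, being tumor 4 for 24 members, tumor 1 for 17 and tumor 3 for 14.

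NRAS tumor 4 stood at different levels relative to NRAS tumor 1 from gene to gene. As ratios to that tumor its levels ran from 0.336 times (Cenpm) to 1.59 times (Anln), with a median of 0.742. Of the 10 inner kinetochore genes 7 were below that median, among them Cenph at 0.351, Cenpk at 0.3705 and Cenpq at 0.446. A median splits all members evenly, and low ratios were not particular to this role. Among chromosome structure genes, Smc2 stood at 0.509, Mki67 at 0.513, Ncapd2 at 0.523 and Top2a at 0.547, while Smc4 stood at 0.816. Cenpt stood at 0.758, Cenpi at 0.846 and Cenpa at 0.992. Cyclin B1 and cyclin B2 parted in this tumor, at 0.377 and 1.02. These are values of 1 library each, with no replicate check.

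Ratios of genes within a library are free of its overall mitotic level, and the pairs given here were chosen after their values were seen, so they were not tested. The ratio of Mki67 to Top2a FPKM was 0.319, 0.322, 0.271 and 0.299 in NRAS tumors 1 to 4 and 0.506, 0.506, 0.499 and 0.508 in PDGFB tumors 1 to 4. The groups did not overlap although the Top2a levels did. In normal brain, where both genes were below 1 FPKM, the ratio was 0.354, 0.629 and 0.628. The ratio of Ccnb1 to Ccnb2 was 1.97, 2.11 and 1.97 in NRAS tumors 1 to 3, 0.728 in NRAS tumor 4, and 2.04, 1.88, 2.05 and 1.68 in PDGFB tumors 1 to 4. Here NRAS tumor 4 alone stood away from the other 7 tumors.

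**Figure D5:**
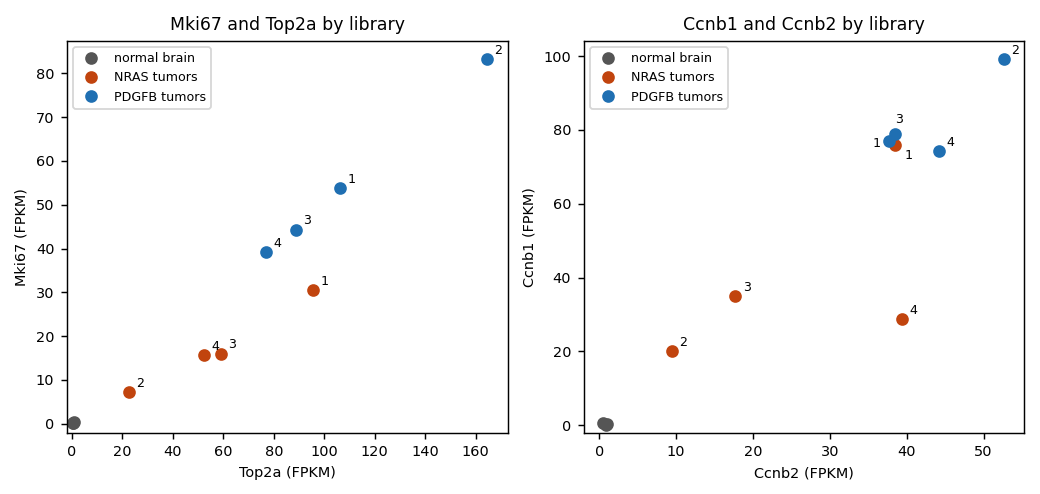
Mki67 against Top2a (left) and Ccnb1 against Ccnb2 (right), FPKM in each library, with tumors numbered by replicate. On the left NRAS tumors and PDGFB tumors lie on separate lines through the origin, and on the right NRAS tumor 4 lies below the line that the other tumors share.

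To show which genes differed beyond the shared level, the mean log2(FPKM + 1) of the 55 members was subtracted in each library. After this centring the models overlapped for 45 members. They did not overlap, with NRAS lower, for 6: Mki67 (-0.88), Racgap1 (-0.53), Ncapd2 (-0.45), Nusap1 (-0.40), Cdc25c (-0.35) and Spc24 (-0.31). Of all genes tested 0.283% did so when centred on the same member mean. They did not overlap, with NRAS higher, for 4: Anln (1.22), Mad2l1 (0.45), Cenpi (0.36) and Aurka (0.27), where 27.3% of all genes did so. The member mean is itself lower in NRAS tumors, so subtracting it raises every gene there. Centred member values sum to 0 in every library, so lower genes must be matched by higher ones, and no test was made on them.

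Other mitotic genes gave a broader view of the same machinery. Of 92 listed genes that are not among the 55, 64 were higher, 6 lower and 22 not past the threshold in NRAS tumors against normal brain, and 78, 5 and 9 in PDGFB tumors (limma with Benjamini-Hochberg adjustment over all genes). Of all genes tested 32% were higher and 30.3% lower in NRAS tumors, and 29.3% and 29.2% in PDGFB tumors. The median differences of the 92, 1.06 and 1.44, were smaller than those of the 55. Between the models 24 of the 92 were lower in NRAS tumors and 0 higher, with a median of -0.41. Of all genes 12.2% were lower and 14.3% higher there.

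Kinetochore and centromere genes outside the 55 rose for the most part, 21 of 25 in NRAS and 24 of 25 in PDGFB tumors. Of all genes 32% and 29.3% were higher. Pmf1, a Mis12 complex subunit, rose from a mean of 2.95 FPKM in normal brain to 34.8 and 48.6 in NRAS and PDGFB tumors. Zwint, a kinetochore protein that is also abundant in neurons, went the other way, from 685 FPKM to 254 and 238. Cenpb, Cenpc1 and Cenpo did not pass in NRAS tumors (limma adjusted p = 0.0696, 0.74 and 0.812). Among checkpoint, passenger and entry genes, Cks2, a Cdk1-binding subunit, rose from 1.99 FPKM to 65.8 and 99.5, and Cks1b from 2.41 to 68.9 and 52.8. Arpp19 and Ensa, phosphatase inhibitors of mitotic entry, fell in NRAS tumors, and Ensa fell in PDGFB tumors.

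The core of the anaphase-promoting complex, unlike its partners above, showed small differences. Of 16 core and regulator genes 6 were higher in NRAS tumors, where 32% of all genes were, and 10 in PDGFB tumors, where 29.3% were, with median differences of 0.21 and 0.53. In neither model did Anapc2, Anapc4, Anapc5, Anapc13, Anapc16 or Fzr1 pass. Anapc2 and Anapc4 had means of 35.6 and 29.6 FPKM in normal brain, 33.6 and 31.8 in NRAS tumors and 37.5 and 31.4 in PDGFB tumors. The inhibitor Fbxo5 (Emi1) rose most, from 0.950 to 13.2 and 19.8 FPKM. Cohesin and the remaining condensin genes gave 7 of 14 higher in NRAS and 12 of 14 in PDGFB tumors, against the same 32% and 29.3% of all genes. The medians of the 14 were 0.60 and 1.03, with Cdca5 (sororin) and Esco2, both tied to cohesion in dividing cells, at the top. Of 16 other spindle and cytokinesis genes 14 and 15 were higher, against the same shares. Cep55 led them (0.196 FPKM in normal brain, 17.3 and 19.8 in the tumors), while Cit, citron kinase, fell from 16.9 to 5.85 and 7.23 FPKM. Of 6 genes listed with the MuvB complex, which include the Myb factor Mybl1, 4 were higher in each model, against the same shares. Mybl1 rose most (differences 1.99 and 2.80). Lin52 was lower in both models, and Lin37 was lower in PDGFB tumors (limma adjusted p = 0.0391).

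DNA replication genes, the nearest other stage of the cell cycle, rose with the mitotic genes. All 20 were higher than normal brain in both models, where 32% and 29.3% of all genes were, with median differences of 2.77 and 3.49. Between the models 2 of 20 (Rrm1 and Rfc4) were lower in NRAS tumors, near the 12.2% of all genes, 18 did not pass, and the median was -0.54, against 24 of 55 and -0.81 for the mitotic genes. Whether the lists differ from each other was not tested.

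Several members share exon sequence with a gene on the opposite strand, which matters where the counting did not use strand. Those whose partner has a row in the table are, in the GENCODE M21 annotation, Ccna2 with Exosc9, Cdc20 with Elovl1, Cenpk with Ppwd1, Cenpq with Mut, Cenpp with Aspn and Ippk, Cenpt with Tsnaxip1, Ube2c with Tnnc2, Nusap1 with Oip5, Prc1 with Rccd1, Ncapg with Lcorl, Cdc25b with Spef1, and Ube2s with Rpl28. Cdc25c and Plk1 overlap predicted genes that were not analysed here. Exosc9 averaged 18.1, 30.1 and 21.6 FPKM in normal brain, NRAS and PDGFB tumors. It was highest in NRAS tumors and Ccna2 in PDGFB tumors, and its part in the Ccna2 values was not tested. Ppwd1 averaged 7.01, 10.1 and 15.01 FPKM, in the same order as Cenpk, and its part in the Cenpk values was not tested. Mut averaged 23.2, 14.2 and 15.2 FPKM, lower in both models than in normal brain, where Cenpq was higher (3.81, 19.0 and 43.4 FPKM). Between the models both means were higher in PDGFB tumors, and the part of Mut in the Cenpq values was not tested. Elovl1 averaged 20.1, 32.5 and 27.4 FPKM. It was highest in NRAS tumors and Cdc20 in PDGFB tumors, and its part in the Cdc20 values was not tested. Oip5 averaged 0.499, 6.62 and 11.3 FPKM, in the same order as Nusap1, and its part in the Nusap1 values was not tested. The other partners were not compared.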

How the data were processed

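RNA was sequenced from 3 normal brains, 4 NRAS tumors and 4 PDGFB tumors of mice. The authors deposited 1 table of FPKM per gene, 1 column per library, made with TopHat2 2.0.13 and Cufflinks 2.2.1 on mm10, per the submitters' processing notes. No label or note gives the settings, the annotation or the handling of strand. FPKM is a relative value: where a few transcripts take up much of a library, all others read lower. That the values are FPKM was taken from these tools and the values. Of 24347 rows, 27 carried a date in place of a gene name and were dropped.

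Differences were tested with limma 3.58.1 in R 4.3.3 (lmFit, contrasts.fit, eBayes with trend) on log2(FPKM + 1), over the 14491 genes that reached 1 FPKM in 3 or more libraries. All 11 libraries entered 1 fit with 1 mean per group and no covariate. All p-values are two-sided and carry the Benjamini-Hochberg adjustment across every gene tested, and calls were made at 0.05; the pseudocount of 1 makes changes of low genes look smaller. Errors are limma standard errors. No interval from read depth can be given. Simulated data had 200 of 14491 genes changed, all with a mean log2(FPKM + 1) above 3, so recovery of lower genes is not covered. There 2-fold changes were recovered for 50% of genes (NRAS against normal brain), 69% (PDGFB against normal brain) and 70% (NRAS against PDGFB). For 4-fold changes it was 91%, 96% and 94%. Of the calls, 5.37%, 7.3% and 3.53% fell on unchanged genes.

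The members, the lists of other mitotic, replication and marker genes and the tests were chosen with earlier results of these data known. Per-library values are given for the member with the highest mean and the member with the largest difference between the models in each role, for members that did not pass against normal brain, and for the 10 smallest p between the models; values for Cdk1 and the within-library ratios were added after they were seen. Of genes that are no members, those with the largest changes and those that did not pass are named as examples. Promoter windows are from RefSeq (GRCm38.p6) and positions from GENCODE M21 on the same assembly. The alternatives were another pseudocount (0.1), other filters, quantile and median-of-ratios scaling, only the 2 groups compared, no trend, the title number series as a covariate or 1 series alone, a replicate block, each library left out, and, added after seeing the data, title-matched libraries as a random block and NRAS tumors 3 and 4 alone.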

Additional observations from a re-analysis of the deposited data

Results flagged for a closer look

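For 13 of 110 groups of 4 tumors (55 genes in 2 models), the highest library stood so far from the other 3 that its gap to the nearest took up more of the group's range than Dixon's 95% critical value allows; chance flags about 1 in 20 groups. All 13 were PDGFB tumors, and PDGFB tumor 2 was the far library in each, so the 13 are not independent of each other. Its levels were 15.3 FPKM for Cenpi, 28.1 for Ndc80, 44.1 for Nuf2, 25.1 for Bub1, 39.5 for Bub1b, 26.1 for Ttk, 106.7 for Ccna2, 39.5 for Plk1, 35.0 for Aurka, 43.7 for Ncaph, 63.9 for Tpx2, 68.0 for Nusap1 and 99.0 for Prc1. This tumor also had the lowest neuron marker sum of all tumors (79.7 FPKM).

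For 24 genes the change from normal brain differed between the models by the limma contrast of NRAS against PDGFB tumors, in which the shared normal brain cancels. At the kinetochore the differences (NRAS minus PDGFB, log2 scale) were -0.93 for Cenpk, -1.12 for Cenpm, -1.08 for Cenpn, -1.03 for Cenpp, -1.19 for Cenpq, -0.92 for Nuf2, -1.14 for Spc24, -0.76 for Spc25 and -1.19 for Cenpf. In the passenger complex and among entry and exit genes they were -1.07 for Aurkb, -0.79 for Incenp, -0.93 for Ccna2, -1.19 for Ccnb1, -1.18 for Cdc25c, -1.02 for Cdc20 and -0.75 for Ube2s. For chromosome structure, spindle, cytokinesis and transcription factor genes they were -1.71 for Mki67, -1.27 for Ncapd2, -0.86 for Tpx2, -0.80 for Ckap2, -0.49 for Ckap5, -1.23 for Nusap1, -1.36 for Racgap1 and -0.90 for Foxm1.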

How the results depend on the processing

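The 53 higher members in NRAS tumors and the 53 in PDGFB tumors against normal brain were kept nearly whole: 52 of the NRAS calls held in all 23 alternatives run (the exception was Bub3) and 53 of the PDGFB calls in all 21. The share of all genes whose calls held throughout was not counted. The count between the models depended on the setting. It was 24 as reported, 15 with only the 2 groups compared and 13 with the series of title numbers as a covariate. Of all genes 12.2%, 8.18% and 11.3% were lower in these settings. Leaving out 1 library at a time gave 14 (without PDGFB tumor 2) to 45 (without NRAS tumor 1), with 15 without NRAS tumor 3. The shares of all genes lower were 9.07%, 13.6% and 8.28%. The direction of Anln turned in 2 settings, to -0.023 in PDGFB tumors against normal brain with that covariate, and between the models to -0.035 without NRAS tumor 4 (up to 0.74 without NRAS tumor 2). Over all members and settings, 3491 values kept their direction and side of the threshold, 107 lost and 30 gained a call, and 2 turned.

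With the replicate number as a block 16 of the 24 remained between the models, where 9.33% of all genes were lower. Against normal brain 53 and 53 remained, where 29.1% and 27% of all genes were higher. Deviations of same-numbered libraries correlated from -0.50 to 0.16 over 10 pairs, and those of other pairs from -0.37 to 0.48. The ranges overlap, so this check cannot decide whether the numbers pair the samples. With the title-matched libraries as a random block the count between the models was 24, where 12.3% of all genes were lower. Quantile normalization moved the median of all genes between the models from -0.04 to -0.11. It left 23 members lower and 0 higher, where 15.8% of all genes were lower and 12.5% higher. Read depth is unknown, which limits the members below 1 FPKM in normal brain.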
